A study of Mus musculus with 4 samples.

Results

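The Lars2 locus carried a YAP peak over the last exon of the gene in both replicates of the ChIP-Seq experiment, and a second, weaker peak upstream of the gene in replicate 1 alone. The locus was taken as the gene with 50 kb on each side, and was chosen by its peaks: the lists hold a peak there in both replicates. In this window lay 2 of the 447 peaks called in replicate 1 and 1 of the 154 called in replicate 2, or 3 of 601 in all. These 3 peaks are described below without a test, since their values are those on which the locus was selected. The study comprised 4 samples of E14Tg2a cells, a mouse ESC line kept undifferentiated and not treated: chromatin of 2 independent experiments, precipitated with a rabbit polyclonal antibody against YAP, and 2 samples of input chromatin, for which no file was analysed here. In ChIP-Seq, DNA fragments bound by a protein are enriched with an antibody and sequenced, and a place where the mapped reads (tags) pile up is called as a peak. Peak lists hold no expression levels, so the labelled cell type could not be checked against its markers.

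YAP is a coactivator of transcription that is held back by the Hippo kinases and has no DNA-binding domain of its own. It reaches chromatin mainly through the TEAD factors, which recognise the letters CATTCC. Lars2 encodes the mitochondrial leucyl-tRNA synthetase, the nuclear-encoded enzyme that loads leucine onto its tRNA for protein synthesis inside mitochondria. Its downstream neighbour, Limd1, encodes a LIM domain protein that restrains the Hippo kinases LATS.

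In the GENCODE annotation of mm9, Lars2 (ENSMUSG00000035202.7) lies on the plus strand of chromosome 9 from 123276058 to 123371782 and has 21 exons. The last exon, from 123370617 to 123371782, holds the final 177 bp of the coding sequence followed by 989 bp of 3′ UTR. The peak found in both replicates lay here. Its summits, the positions of highest tag pile-up, were at 123371124 in replicate 1 and 123371108 in replicate 2. They were 331 and 315 bp past the end of the coding sequence, within the 3′ UTR. The 30 reference bases at chr9:123371102-123371131 hold both summits, and the capitals mark the bases from one summit to the other. Below it are, among the places that share 25-mers (words of 25 bases) with the peak, the 3 that resemble these 30 bases most, with capitals at the bases that differ from Lars2: inside Gphn (chr12:79452109-79452138, 1 difference), outside annotated genes near Cyp2c50 (chr19:40194253-40194282, 1 difference) and near Zfp945 (chr17:23015118-23015147, 2 differences), all on the plus strand.
Lars2 summits: aagcgtTCATAGCGACGTCGCTTtttgatc
Gphn: aagTgttcatagcgacgtcgctttttgatc
near Cyp2c50: aagcgttcatagcgacAtcgctttttgatc
near Zfp945: aagcgttcatagcCacAtcgctttttgatc

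These bases belong to a stretch of 384 bp, from 123370918 to 123371301, that has copies elsewhere in the genome. The origin of the stretch was not tested, since no rRNA reference was used here. Near its end lie the letters TACGAGAGG, which match the core of the sarcin-ricin loop, a segment of the large-subunit ribosomal RNA that ribosomes of all organisms share. This RNA forms the catalytic core of the large ribosomal subunit, and cells carry many copies of its gene in arrays. The match is shown in capitals in the 30 bases at chr9:123371279-123371308 (plus strand).
letters of the loop core: tcctgctcagTACGAGAGGaaccgcagcta
By contrast, every exact 25-mer of the coding part of the same exon occurs once in mm9. The sequence at chr9:123370617-123370793 (plus strand) is shown because the peaks of both replicates cover it whole, next to the copied stretch.
last coding bases of Lars2: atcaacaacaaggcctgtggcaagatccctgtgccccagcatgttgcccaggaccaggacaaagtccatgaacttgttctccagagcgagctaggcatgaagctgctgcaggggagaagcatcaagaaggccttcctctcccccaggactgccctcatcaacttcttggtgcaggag

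**Figure D1:**
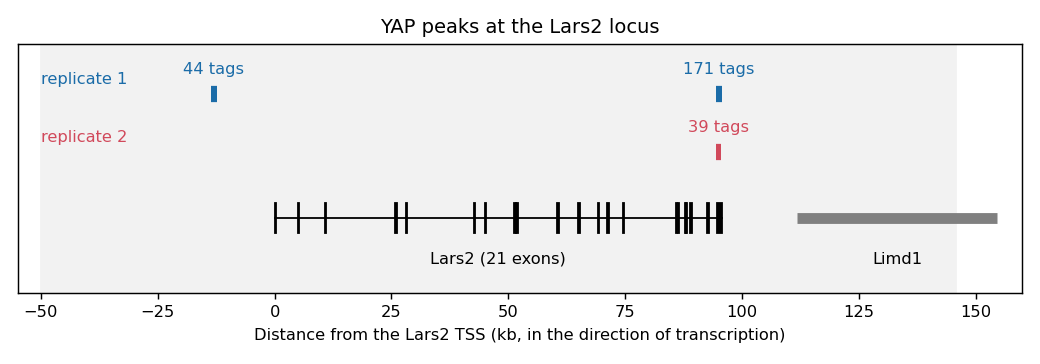
Map of the Lars2 locus with the distance from the Lars2 TSS in kb on the x axis. Black boxes are exons (drawn at least 300 bp wide), the grey bar is Limd1, blue and red bars are the peaks of replicates 1 and 2 with their tags, and the shaded area is the gene with 50 kb on each side. Replicate 1 has 171 tags at the 3′ end of Lars2 and 44 upstream, and replicate 2 has 39 at the 3′ end.

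In replicate 1 the peak in Lars2 ran from 123370433 to 123371872 (1440 bp) and held 171 tags. Of its length, 184 bp lay in the last intron, 177 bp in coding sequence, 989 bp in the 3′ UTR and 90 bp past the annotated gene end. Its score, which is 10 times the negative log10 of the MACS p-value, was 357, and its fold enrichment over the local background of the same library was 17.28. By score it was number 39 of 447, by tags number 86 and by fold enrichment number 10. In this list the medians were 46 tags, 68.05 for score and 8.97 for enrichment. The peak was therefore among the highest of its list by enrichment and less so by tags.

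In replicate 2 the peak ran from 123370533 to 123371621 (1089 bp) and held 39 tags. Its score was 78.4 and its fold enrichment 11.54. Of its length, 84 bp lay in the last intron, 177 bp in coding sequence and 828 bp in the 3′ UTR, and it ended within the exon. It was number 68 of 154 by score, number 73 by tags and number 28 by fold enrichment. Here the medians were 36 tags, 71.81 for score and 7.615 for enrichment. In this replicate the peak was thus near the middle of its list by score and tags, and in the upper part by enrichment. Scores and fold enrichments hold only within their own list.

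**Figure D2:**
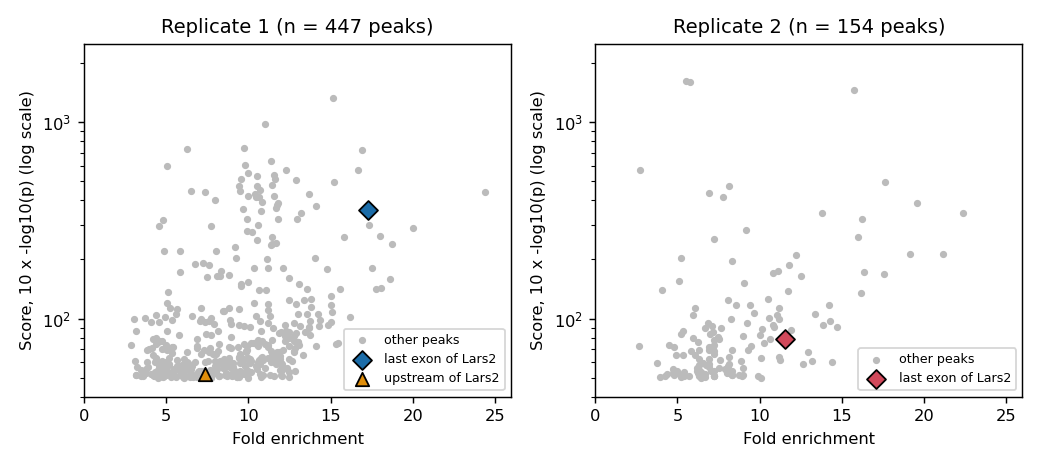
Score (log scale) against fold enrichment for every peak of each replicate, one panel per replicate, with the Lars2 peaks marked. The diamond is the peak in the last exon, enriched 17.28-fold in replicate 1 and 11.54-fold in replicate 2, while the triangle is the peak upstream of the gene, close to the lowest scores of the list.

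Both libraries placed the peak at the same position. The whole peak of replicate 2 lay inside that of replicate 1 and covered 75.6% of it, and the summits were 16 bp apart. Over the 66 pairs of overlapping peaks the median distance between summits was 37.5 bp (range 0 to 678 bp), and 30 pairs were at least as close as Lars2. An overlap with the other list was seen for 14.8% of all peaks in replicate 1 and for 42.9% in replicate 2. As Lars2 was chosen for its overlap, nothing is read from it against these shares.

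The replicates differed in the number of tags. Unique tags are a total given in the headers of the lists, beside 27762264 total tags in replicate 1 and 18187551 in replicate 2. The headers do not say that unique means 1 place in the genome. Replicate 1, with 22696949 unique tags, had 7.53 tags per 1000000 unique tags at the Lars2 peak (95% Wilson confidence interval 6.49 to 8.75). Replicate 2, with 14965024 unique tags, had 2.61 (1.91 to 3.56). The intervals do not overlap, and they cover counting error only. The ratio of replicate 2 to replicate 1 was 0.346, whereas the median ratio over the 66 shared pairs was 0.658 (range 0.127 to 1.52). In 47 of the 66 pairs the ratio was under 1, and in 16, Lars2 included, it was at or under that of Lars2. Per kb of peak the values were 5.23 and 2.39. With 2 libraries, this difference is the only measure of replicate error for the peak.

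**Figure D3:**
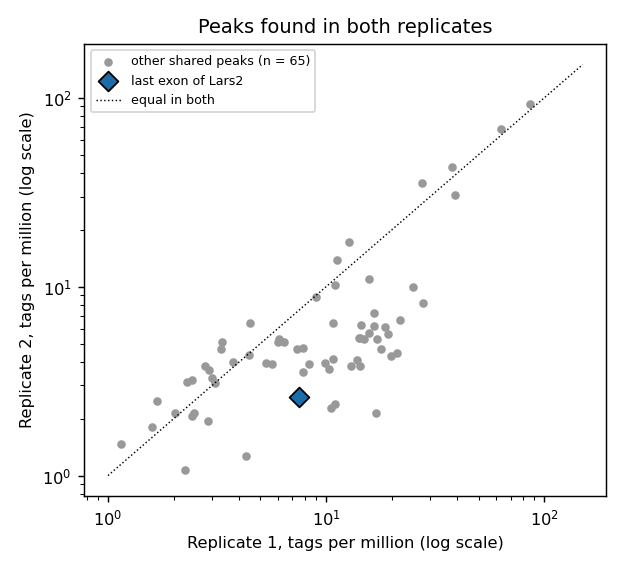
Tags per 1000000 unique tags in replicate 2 against replicate 1 for the 66 pairs of overlapping peaks, both axes on a log scale. The diamond is the peak in the last exon of Lars2, at 7.53 and 2.61, and the dotted line marks equal values.

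Peaks centred in a 3′ UTR were few. In replicate 1 the summit of 8 of the 411 peaks on assembled chromosomes (1.95%) lay in the 3′ UTR of a coding transcript, and in replicate 2 that of 2 of 144 (1.39%). Lars2 had the highest score of the 8 in replicate 1 and of the 2 in replicate 2, but not the most tags. The most were 202 in replicate 1 and 46 in replicate 2, against 171 and 39 at Lars2. Besides Lars2, Slc30a4, a zinc transporter gene, was the one found in both lists, with 70 and 46 tags and scores of 79.07 and 68.23.

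The 25-mer, which has the length of a tag in the file headers, was used to describe how far the sequence of a peak is shared with the rest of the genome. In the Lars2 peak 81.4% of 25-mers occurred once in mm9 in replicate 1 and 75.6% in replicate 2. The medians over the peaks on assembled chromosomes were 71.02% (n = 411) and 75.63% (n = 144), and 283 and 71 of these peaks had a lower share than Lars2. Within 100 bp of the summit the share fell to 32.2% and 28.2%, against medians of 25.99% and 78.8%. The low value at the summit was thus close to the median of replicate 1 and below that of replicate 2.

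Nearly all 25-mers with an exact copy lay in the stretch of 384 bp. Of its 360 25-mers, 260 had an exact copy elsewhere, and all 360 had one when up to 2 mismatches were allowed, as in the mapping by the authors. Each of 4 single bases of the stretch, at 123370996, 123371058, 123371105 and 123371218, lay in no 25-mer with an exact copy. A copy can still hold the same base there, as the place near Cyp2c50 does at 123371105. Of the 1056 25-mers of the replicate 1 peak outside the stretch, 1053 (99.7%) occurred once exactly, and 908 (86.0%) when up to 2 mismatches were allowed. Copies with mismatches were thus found outside the stretch as well. The stretch made up 26.7% of the peak in replicate 1 and 35.3% in replicate 2, and its midpoint was 15 bp and 1 bp from the summits. A 25-mer of the stretch had a median of 3.5 places in the mm9 sequence and at most 8. With up to 2 mismatches the median was 6 and the highest number 15. These numbers are under the limit of 100 places per read set in the mapping, which was also to mm9, so such reads could be kept. Copies that the mm9 sequence lacks were not counted, and their number is not known here. The authors state that each alignment carried a weight that falls with its number of places, but the tags in the lists are whole numbers, and how the weights entered them is not given in the sources used here. Further along, 857 to 862 bp past the coding end, 6 25-mers had over 100 places with up to 2 mismatches (0.424% of the peak). The lists give tags per peak and not per position, and the part of reads from copied sequence in the 171 and 39 tags was not tested.

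**Figure D4:**
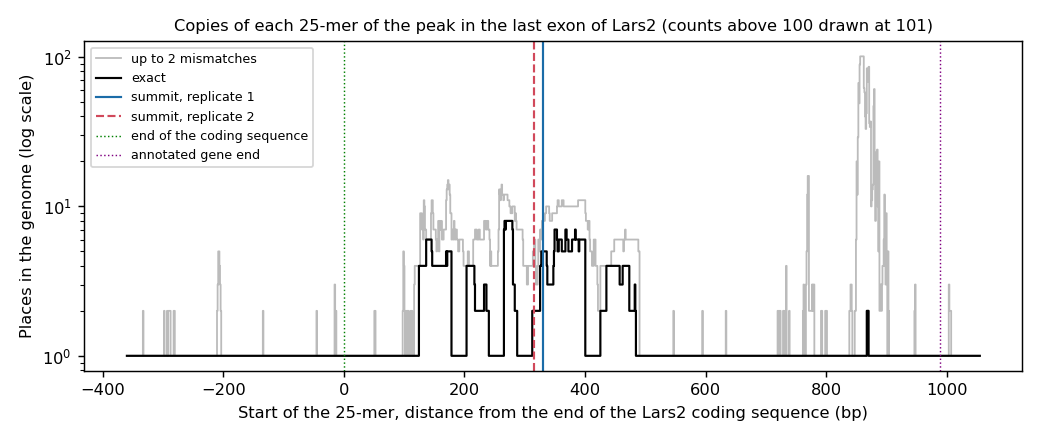
Number of places in mm9 (log scale) that hold each 25-mer of the replicate 1 peak, by distance from the end of the Lars2 coding sequence, for exact copies (black) and copies with up to 2 mismatches (grey, numbers over 100 drawn just above 100). Vertical lines mark the summits of both replicates, the coding end and the annotated gene end. Exact copies lie between 125 bp past the coding end and the end of the 384 bp stretch, around the summits, apart from 3 25-mers further on.

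Exact 25-mers of the stretch were found at 22 other places. Of these, 5 lay in a peak of replicate 1 and the other 17 in none. With up to 2 mismatches there were 54 places, of which 5 lay in a peak and 49 did not. No share for other places of the genome was counted beside these numbers, so they are a description only. The peak in Gphn, which encodes the synaptic scaffold gephyrin, shared 113 25-mers with the stretch and held 108 tags (chr12:79451359-79452721, score 203.58). A peak outside annotated genes near Tra2a, a splicing factor gene, shared 94 and held 98 tags (chr6:49185747-49187300, score 105.8). A peak where Kpna1, which encodes an importin alpha, overlaps Gm15564 shared 86 and held 92 tags (chr16:35981065-35982540, score 105.12). The centres of both peaks in genes lay outside the exons of coding transcripts. The peak in Gm16724, a lincRNA gene, shared 49 25-mers and held 56 tags in replicate 1 (chr17:71312361-71313809, score 60.83). A last one, outside annotated genes with SNORA17 as the nearest, shared 11 and held 41 tags (chr1:104524500-104525457, score 84.4). In all 5 the summit was within 10 to 54 bp of the median place of the shared 25-mers. Ordered by shared 25-mers, these 5 peaks were also in order of tags, and all had fewer tags than Lars2. This order leaves out the 17 places without a peak, and a relation of tags to shared 25-mers was not tested. The 5 are peaks of 1 library that share sequence, and whether the same reads were counted at several of them was not tested. The place near Cyp2c50 shared 64 25-mers (162 with up to 2 mismatches, more than any place but that in Gphn) and one near a U2 snRNA gene on chromosome 11 shared 56, and neither had a peak. In replicate 2 the Gm16724 peak alone was found again (chr17:71312900-71313602), with 32 tags and a score of 117.17, higher than that of Lars2.

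TACGAGAGG, searched on both strands, occurred once in the Lars2 peak. It was held by 4 of 411 peaks of replicate 1 (0.973%) and by 2 of 144 of replicate 2 (1.39%). Besides Lars2, these were the Gm16724 peak in both replicates and, in replicate 1, the peaks at Gm15564 and at Gm16889, the last of which shared no exact 25-mer with the stretch. This motif was chosen after the sequence of the peak had been read.

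Of the 335 ribosomal RNA genes searched by name or annotated type, 1 was overlapped by a peak of replicate 2, against 0.268% of the 37310 genes of any type. In replicate 1 none was, against 0.777%. The annotation held 0 genes under the names Rn45s, Rn18s and Rn28s1, so the nuclear rRNA arrays were hardly covered by this search. Peaks and copies could be found only in the mm9 sequence, and how much of the arrays it holds was not tested. The overlapped gene was AY036118 on chromosome 17, annotated as a pseudogene, with 3311 tags in replicate 2 and no peak in replicate 1. That peak shared 0 exact 25-mers with the peak in Lars2. It did not hold TACGAGAGG, and which parts of ribosomal RNA it covers was not tested. Nothing is therefore read from the 0 about the origin of the stretch.

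CATTCC, searched on both strands, occurred 0 times within 100 bp of the Lars2 summits, where 9.98% of replicate 1 peaks and 13.2% of replicate 2 peaks held it. It occurred 1 time further out in the Lars2 peak of each replicate, as 47.2% of the peaks of either list held it at any position. The reversed letters CCTTAC occurred 0 times near the summits. These are letter matches in the reference and say nothing about the presence of TEAD.

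The second peak of the locus lay between genes, from 123262412 to 123263670 (1259 bp), with its nearer edge 12388 bp before the Lars2 TSS. It was found in replicate 1 alone. It held 44 tags, or 1.94 per 1000000 unique tags (95% Wilson confidence interval 1.44 to 2.60), and was enriched 7.35-fold with a score of 52.36. The lowest score in the list was 50.01, and the peak was number 385 of 447 by score, 235 by tags and 287 by fold enrichment. At the same rate replicate 2 would have held 29.01 tags, and the smallest peak in its list had 15. In the shared pairs, however, the median ratio of replicate 2 to replicate 1 was 0.658. At the peak in Lars2 it was 0.346, so 29.01 may be too high. No value of replicate 2 was given at the place of the upstream peak. The absence of a peak there in replicate 2 does not show that the replicates differed.

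The summit of this peak, at 123263182, lay in a simple repeat of G and A. The 200 reference bases around it, at chr9:123263082-123263281 (plus strand), are shown with the summit in capitals because the repeat continues on both sides.
upstream of Lars2: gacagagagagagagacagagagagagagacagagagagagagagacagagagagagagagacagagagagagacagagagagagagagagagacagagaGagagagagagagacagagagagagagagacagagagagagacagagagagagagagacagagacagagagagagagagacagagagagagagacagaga
The repeat ran for 524 bp, from 123262824 to 123263347, and was 92.9% A or G on the plus strand, with 1 T. Each of its 500 25-mers had over 100 places in the genome with up to 2 mismatches, beyond the number that the mapping allowed. Of the 735 25-mers of the peak outside the repeat, 89.8% had 1 place. Over the whole peak 40.6% of 25-mers were above the limit, against a median of 18.5% over 411 peaks, and 102 of these had a higher share. In purine or pyrimidine content on 1 strand, 6 of the 411 peaks were more one-sided. Within 100 bp of the summit 0% of 25-mers occurred once, and the median 25-mer had 1700 exact places. CATTCC and TACGAGAGG occurred 0 times in this peak.

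**Figure D5:**
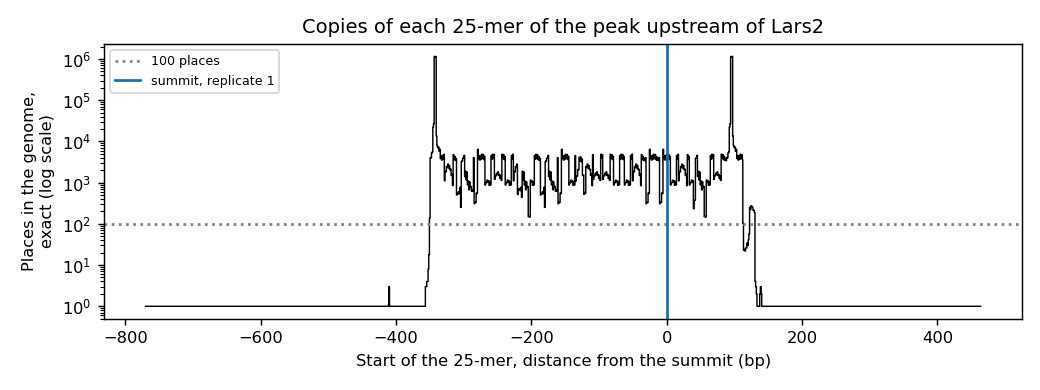
Number of places in mm9 (log scale, exact copies) that hold each 25-mer of the peak upstream of Lars2, by distance from its summit. The dotted line marks 100 places, and the 25-mers around the summit lie above it, within the repeat of 524 bp.

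No peak lay at the Lars2 TSS in either list, and the next peaks were far from the window. Upstream, the nearest was 876916 bp from the gene in replicate 1 (19 tags) and 30748633 bp in replicate 2 (16 tags). Downstream, the nearest of replicate 2 was 461067 bp away (56 tags), and replicate 1 had none on the rest of the chromosome. Limd1, which starts 16037 bp past the end of Lars2 and runs from 123387819 to 123430666, was the other gene of the window and had no peak in its body. The summits in the last exon of Lars2 were 16695 and 16711 bp from its TSS.

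Among the mitochondrial aminoacyl-tRNA synthetases, which each load 1 amino acid for mitochondrial translation, Lars2 was the one with a peak in the gene. All 17 genes of the list were found in the annotation. In replicate 1, 2 of them had a peak within 50 kb, against 651 of 22367 coding genes (2.91%), and in replicate 2 it was 1, against 217 (0.97%). The other one in replicate 1 was Aars2, the alanyl-tRNA synthetase, at 45575 bp from a peak whose summit lay in the 3′ UTR of Slc35b2 (137 tags, score 86.93). Within 10 kb it was Lars2 alone in both replicates, beside 1.33% of coding genes in replicate 1 and 0.411% in replicate 2. Within 500 kb, where 16.1% of coding genes had a peak in replicate 1 and 5.6% in replicate 2, there were also Nars2 at 55347 bp (19 tags) and Tars2 at 288907 bp (185 tags) in replicate 1, and Vars2 at 392959 bp (29 tags) in replicate 2. Since Lars2 was chosen for its peak, no enrichment of the list is read from these counts.

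Among the 66 shared peaks, Lars2 ranked 32 by score in replicate 1 and 50 in replicate 2. The 3 peaks closest to it by the sum of both rank differences each overlapped an annotated snRNA gene. They lay over AC120136.1 in D230017M19Rik on chromosome 1 (ranks 31 and 49, with 339 and 79 tags), over a U1 gene in Tex14 on chromosome 11 (33 and 46, with 321 and 80 tags) and over a U5 gene in Hhat on chromosome 1 (34 and 57, with 189 and 58 tags). A peak over a U5 gene on chromosome 4 (28 and 45) was as near as the last, whereas the Lars2 peak overlapped no snRNA gene. Their fold enrichments in replicate 1, from 9.68 to 11.79, were lower than the 17.28 of Lars2. How many of the 66 shared peaks overlap an snRNA gene was not counted here, so nothing is read from these overlaps or from their lack at Lars2.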

How the data were processed

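The authors mapped the reads of each YAP library to mm9 with bowtie, with up to 2 mismatches and 100 places per read, gave alignments of reads with several places a lower weight, and called peaks per replicate with MACS in Galaxy at a p-value of 1e-05, without a control. The deposited tag numbers are counts not scaled to depth, the deposited score is 10 times the −log10 of the p-value, and the deposited fold enrichment is a ratio to the local background. The members and lists were chosen with earlier results of these data known.

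The peaks overlapping Lars2 or within 50 kb of it were taken from both lists. Peaks sharing 1 bp or more were taken as the same in both lists. Places of each 25-mer in the NCBIM37 sequence (mm9), on both strands, were counted exactly and with up to 2 mismatches. Copied 25-mers were joined into a stretch across gaps of up to 50, and copies within 1000 bp counted as 1 place. Genes came from GENCODE vM1. No test was run. Intervals of shares of tags are 95% Wilson intervals and cover counting error only. Alternatives used other ranks, totals, word lengths, mismatches, distances and score limits. The named genes were those within 50 kb, those of 17 mitochondrial aminoacyl-tRNA synthetases that had a peak within 500 kb, ribosomal RNA genes with a peak, the 3 shared peaks nearest in rank, and the 5 loci sharing most 25-mers. Slc30a4, Slc35b2, Gm16724, SNORA17, Zfp945 and Gm16889 were named after their values were seen. Expression tables of the study were not used here. The tools were numba 0.67.0, pysam 0.24.0, pandas 2.3.3 and numpy 2.4.6 in Python 3.11.15, with scipy 1.17.1 for intervals and matplotlib 3.10.9 for plots, and the counting of copies was checked on simulated sequence.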

Additional observations from a re-analysis of the deposited data

How the results depend on the processing

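Of 49 alternative values, 26 stayed within their limits and 23 moved. A count of 2 peaks at the locus in place of 3 was taken as within the limits. The 49 include the searches for the reversed letters of CATTCC. With a score of at least 100, 1 of the 3 peaks was left, and 0 were found in both replicates. Leaving out each replicate gave 1 to 2 peaks. The peak in Lars2 of replicate 1 ranked 86 by tags and 10 by fold enrichment, that of replicate 2 ranked 28 by fold enrichment, and the upstream peak 235 by tags. For the peak in Lars2 of replicate 1, tags per 1000000 were 6.16 on total tags and 5.23 per kb. With up to 2 mismatches the share of 25-mers with 1 place was 64.1% and 59.4% in Lars2 and 53.4% upstream, with words of 36 it was 85.4% and 80.6% in Lars2, and near the summit it was 32.2%, 28.2% and 0%. CATTCC occurred 1 time in the whole Lars2 peak of each replicate. Of 17 synthetase genes, 1 had a peak within 10 kb (1.33% of coding genes) and 4 within 500 kb (16.1%) in replicate 1, and in replicate 2 it was 1 within 10 kb (0.411%) and 2 within 500 kb (5.6%). The stretch had copies at 54 places with up to 2 mismatches, 49 of them without a peak. Why these values moved was not tested. No paired analysis was possible because no file of the input samples was analysed here.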
